A study of Mus musculus with 12 samples.

Results

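The genes described here are 6 ubiquitin ligases (Cbl, Cblb, Itch, Rnf128, Nedd4 and Nedd4l), 2 diacylglycerol kinases (Dgka and Dgkz) and Ndrg1, all named in work on T cell anergy, the state in which a T cell that has met its antigen no longer responds to it. They were found in the deposited count table by gene symbol. All 9 were among its 16353 genes, and 8 of the 9 had enough reads to be tested. Rnf128 did not.

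Messenger RNA had been sequenced in 12 libraries of CD8 T cells that carry the transgenic KB5 T cell receptor, on the CBA/J background, 3 libraries for each of 4 groups. For activated cells, mice had received 10000000 C57BL/6 splenocytes by vein as a source of H2b antigens. For tolerized cells they had also received the antibody anti-CD154 (0.5 mg, intraperitoneal), which blocks the costimulatory CD40 ligand. Inflamed cells came from mice that had received both and, in addition, LPS (100 µg, intraperitoneal), a component of bacterial membranes. Naive cells came from untreated mice, and every group carried the same receptor. In the treated groups spleens were taken at 12 h, and cells were sorted on the KB5 receptor and CD8 to a purity of 95% by the labels. The labels speak of independent libraries but not of separate mice, nor of how many mice gave a library, so the p-values cover no more than the variation among these samples.

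Anergy is held in part by proteins that shorten the signal of the T cell receptor. E3 ubiquitin ligases such as Cbl-b, Itch and GRAIL (the product of Rnf128) attach ubiquitin to signalling proteins and so limit them, while diacylglycerol kinases turn the second messenger diacylglycerol into phosphatidic acid and so withdraw the signal to Ras and protein kinase C. In naive T cells costimulation through CD28 counters this restraint, and antigen met without costimulation is the classical way to induce it.

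The total assigned to genes ran from 29335723 to 84533097 reads per library. Levels are given in CPM, reads of a gene per 1000000 reads of its library after scaling, and changes as log2 fold changes ± SE of log2(CPM + 1) from 3 libraries per group, with adjusted p-values from limma over 12499 genes. A gene was called when that adjusted p was under 0.05. The 9 CD8 T cell markers found in the table summed to 2912 to 4377 CPM in the activated, tolerized and inflamed libraries and to 5347 to 6574 CPM in the naive ones. Markers of other spleen cells moved with the groups. The 13 macrophage and monocyte markers summed to 64.5 to 815 CPM in activated, 51.5 to 154 CPM in tolerized, 13.4 to 468 CPM in inflamed and 844 to 2172 CPM in naive libraries, with 1 of the 13 at 0 reads in inflamed replicate 3 and none at 0 in the others. B cell markers summed to 100.2 to 213 CPM in the first 3 groups and to 431 to 549 CPM in naive cells, and 9 erythroid markers to 20.1 to 303 CPM in the first 3 groups and 1002 to 2405 CPM in naive cells, with 2 of the 9 at 0 reads in activated replicate 3 and in inflamed replicate 3. The 8 neutrophil markers were highest in 2 inflamed libraries. They summed to 2.40 to 15.5 CPM in activated, 2.96 to 11.3 CPM in tolerized, 224, 104 and 12.7 CPM in inflamed replicates 1, 2 and 3 and 17.5 to 23.4 CPM in naive libraries, with 1 and 3 of the 8 at 0 reads in activated replicates 2 and 3. The part of such cells in the results below was not tested. In sorted bulk cells, fewer cells with a transcript and less transcript per cell cannot be told apart. A further 12 transcripts of resting naive T cells (Il7r and Ccr7 among them, chosen after the data were seen) differed among libraries of 1 group, with a mean log2(CPM + 1) of 5.38, 6.48 and 7.07 in activated replicates 1, 2 and 3, 5.41, 5.78 and 6.62 in tolerized replicates, 5.62, 6.60 and 5.60 in inflamed replicates and 8.14, 8.08 and 7.94 in naive replicates.

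Counted over the 8 tested genes, 2 rose and 4 fell in activated against naive cells, where 35.3% of all tested genes were called higher and 35.3% lower. In tolerized against naive cells 3 rose and 3 fell, with 37.4% of all genes called higher and 35.9% lower. In inflamed against naive cells 1 rose and 3 fell, against 36.9% of all genes higher and 35.5% lower. With so many of all genes called, such counts are not particular to these 8. The 3 comparisons share their naive libraries. The median log2 change of the 8 genes was -0.34 in activated, -0.35 in tolerized and -0.28 in inflamed cells, beside -0.04, -0.01 and -0.01 for all genes.

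Between antigen-exposed groups few genes were called at all. In tolerized against activated cells 0 of the 8 genes and 0.0% of all genes were called by limma, and 0 by limma-voom. The smallest limma adjusted p of any gene was 0.957. Of all 12499 genes 531, Cblb and Dgkz among them, had an unadjusted p under 0.05, and with that adjusted p they are not read as differences. In inflamed against tolerized cells 0 rose and 1 fell, Dgkz, with 1.66% of all genes called higher and 1.12% lower. There 2 of the 8, Dgkz and Ndrg1, and 1837 of all 12499 genes had an unadjusted p under 0.05. In inflamed against activated cells 0 of the 8 were called, with 1.54% of all genes higher and 0.384% lower. An unadjusted p under 0.05 was found for 2 of the 8, Cblb and Ndrg1, and for 1250 of all 12499 genes.

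**Figure D1:**
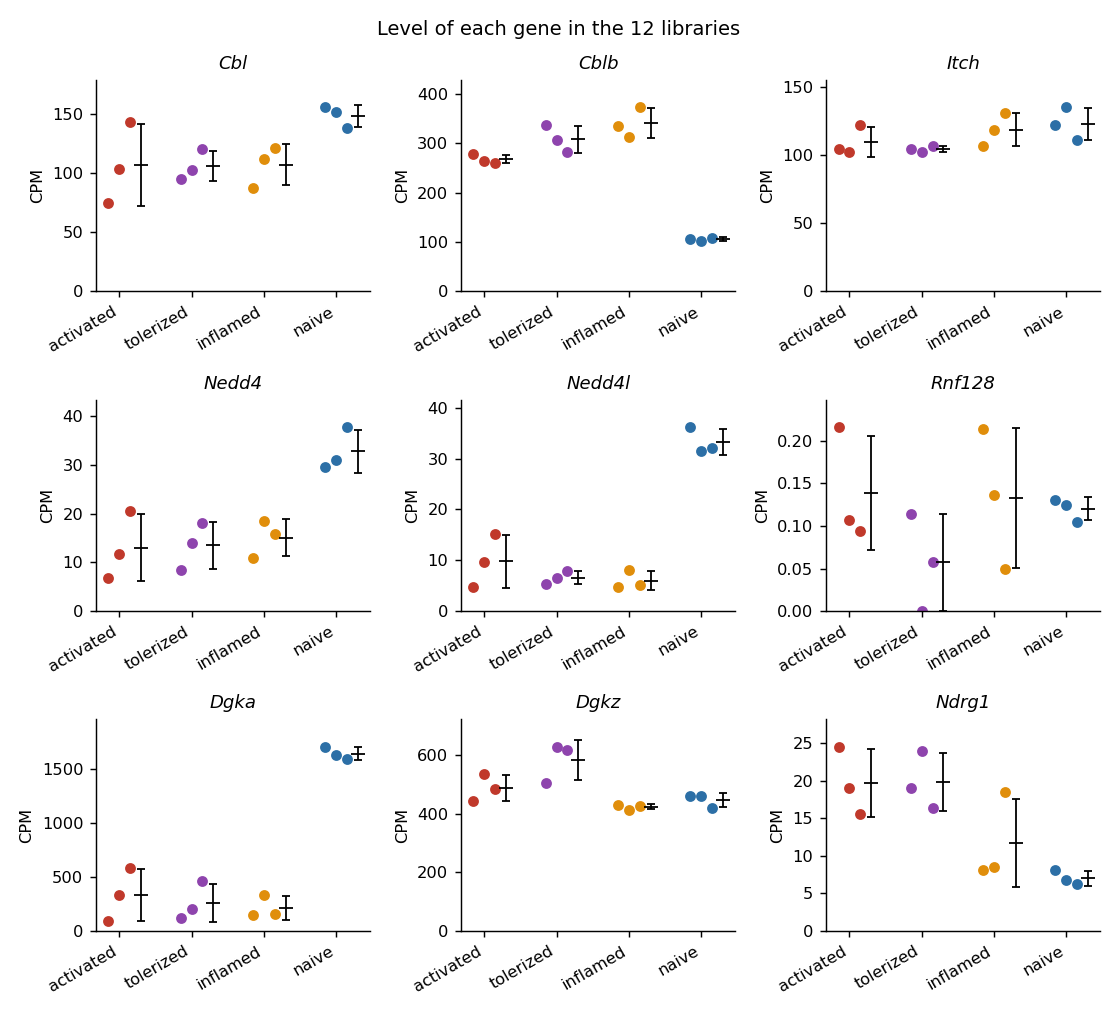
Level in CPM of each of the 9 genes in the activated, tolerized, inflamed and naive libraries. Each dot is 1 library, in replicate order from left to right, and the black bar with whiskers is the mean ± SD of 3. Cblb stands at 261 to 373 CPM in the 9 antigen-exposed libraries, above the 102 to 109 CPM of the naive ones, and Dgka at 92.8 to 580.0 CPM, below the 1596 to 1709 CPM of the naive ones.

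Ligases of the Cbl family went in different directions after antigen. Cblb, which encodes Cbl-b, a RING-type ligase that limits signalling through phospholipase C gamma, phosphatidylinositol 3-kinase and Vav, was 2.52-fold to 3.2-fold higher than in naive cells in all 3 antigen-exposed groups. Cbl, its close relative, which tags activated receptors and kinases for degradation, was lower in activated cells and in the other 2 groups differed by like amounts with an adjusted p just above the threshold.

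Cblb stood at 277, 265 and 261 CPM in activated replicates 1, 2 and 3, at 337, 306 and 282 CPM in tolerized replicates, at 336, 313 and 373 CPM in inflamed replicates and at 106, 102 and 109 CPM in naive replicates. All 9 antigen-exposed libraries lay above all 3 naive ones. By limma the log2 change against naive cells was 1.33 ± 0.09 in activated cells (adjusted p = 4.48e-07), 1.53 ± 0.09 in tolerized cells (adjusted p = 1.7e-07) and 1.68 ± 0.09 in inflamed cells (adjusted p = 1.08e-07). Each of these calls was kept in all 26 alternative fits. The order of the levels was inflamed, tolerized, activated and naive. Its upper steps were not called. Inflamed and tolerized libraries overlapped, and the log2 difference was 0.14 ± 0.09 (limma adjusted p = 0.525). Tolerized libraries all lay above the activated ones, yet the log2 difference of 0.20 ± 0.09 did not pass (unadjusted p = 0.0414, limma adjusted p = 1, interval 0.01 to 0.39). Inflamed libraries also lay above all activated ones, by 0.34 ± 0.09 on the log2 scale (limma unadjusted p = 0.00225, adjusted p = 0.0892, interval 0.15 to 0.53).

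Cblb lies on chromosome 16 (52031230 to 52208047 in GRCm38.p6). The 250 bases before a start site that RefSeq gives for it are shown because this gene was called in the same direction in all 3 groups. The window is chr16:52031299-52031548 on the plus strand, and capitals mark every match, on either strand, to the NFAT core GGAAA or the hypoxia element ACGTG.
Cblb: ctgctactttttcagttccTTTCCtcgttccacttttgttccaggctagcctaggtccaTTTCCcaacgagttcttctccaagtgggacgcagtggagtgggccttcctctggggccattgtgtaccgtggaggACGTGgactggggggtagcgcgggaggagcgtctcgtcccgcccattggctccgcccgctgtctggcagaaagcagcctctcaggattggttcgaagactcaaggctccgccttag
It held 2 matches to GGAAA, a motif present in 55.6% of all 32851 RefSeq windows of this length, and 1 match to ACGTG, present in 16.6%. No match was found in it to the AP-1 motif TGANTCA (in 6.75% of windows), the EGR motif GCGNGGGCG (4.7%), the FOXO motif TGTTTAC (3.17%) or the E-box CACGTG (6.02%), whose letters contain the hypoxia element. The start of the transcript counted in the deposited table lay 324 bases from this start site in GENCODE. The gene begins at 52031230, before the window does, so the window lies within the span of the gene and not upstream of it.

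Cbl stood at 74.5, 103 and 143 CPM in activated replicates 1, 2 and 3, at 95.4, 103 and 120.2 CPM in tolerized replicates, at 87.5, 112 and 121 CPM in inflamed replicates and at 156, 152 and 138 CPM in naive replicates. Activated replicate 3 reached the naive range, and the tolerized and inflamed libraries stayed below it. The log2 change in activated cells was -0.52 ± 0.20 (limma adjusted p = 0.0415), a call made in 3 of 12 leave-one-out fits and in 13 of all 26 alternatives. Without activated replicate 1 the change was -0.25 (limma adjusted p = 0.215). That library had the highest sum of macrophage markers in its group and the lowest naive T cell transcripts and CD8 T cell markers. The part of each was not tested. In tolerized and inflamed cells the changes were -0.49 ± 0.20 and -0.48 ± 0.20 (limma adjusted p = 0.0514 and 0.0531). These were called in 13 and 10 of 26 alternatives.

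Within a library the ratio of 2 genes does not depend on its scaling. Per exon length, Cblb over Cbl was 2.99, 2.06 and 1.47 in activated replicates 1, 2 and 3, 2.84, 2.39 and 1.88 in tolerized replicates, 3.08, 2.25 and 2.48 in inflamed replicates and 0.549, 0.538 and 0.635 in naive replicates. Cblb was thus the more abundant of the pair in every antigen-exposed library and Cbl in every naive one. Of the summed level per length of the 6 ligases, Cblb made up 48.9% ± 6.38 in activated, 52.8% ± 4.32 in tolerized, 53.7% ± 3.37 in inflamed and 21.2% ± 1.38 in naive cells (SD, n = 3).

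**Figure D2:**
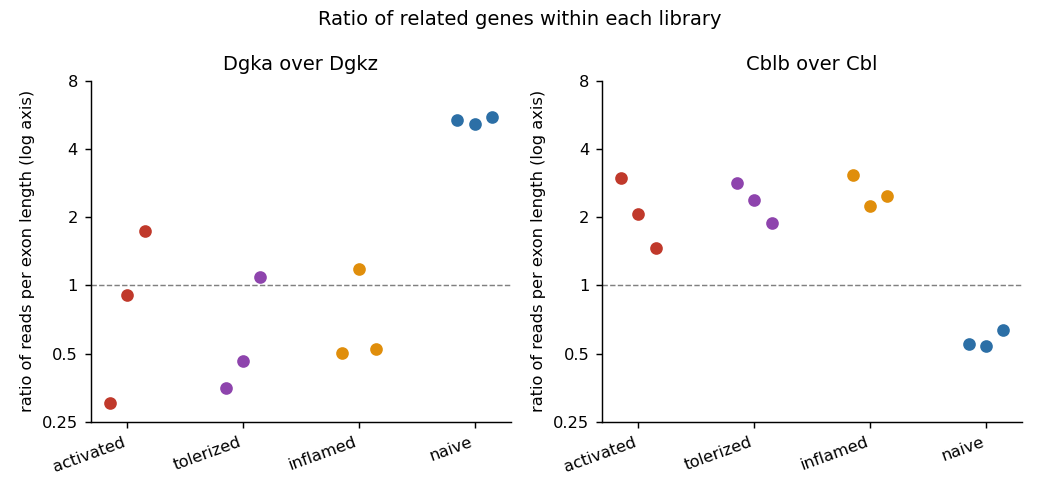
Ratio of reads per exon length of Dgka over Dgkz (left) and of Cblb over Cbl (right) in each library, on a log axis, with the dashed line at equal levels. Both ratios part the 9 antigen-exposed libraries from the 3 naive ones, in opposite directions: Dgka over Dgkz is at most 1.74 after antigen and 5.17 to 5.52 in naive cells, and Cblb over Cbl is at least 1.47 after antigen and at most 0.635 in naive cells.

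The HECT-type ligases of the NEDD4 family were at or below their naive level. Itch, whose product tags JunB and phospholipase C gamma in T helper cells, was not called in any comparison. Nedd4, whose product in mouse T cells targets Cbl-b and so favours activation, and Nedd4l, known for limiting the epithelial sodium channel, both fell in all 3 groups.

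Itch levels ran from 102 to 122 CPM in activated, 103 to 107 CPM in tolerized, 107 to 131 CPM in inflamed and 111 to 135 CPM in naive libraries. The tolerized libraries lay just below the naive ones, and the other groups overlapped them. The log2 change was -0.16 ± 0.10 in activated, -0.22 ± 0.10 in tolerized and -0.05 ± 0.10 in inflamed cells against naive cells (limma adjusted p = 0.174, 0.0674 and 0.683). Itch was called lower in all 3 groups when libraries were scaled by their size alone, at -0.44, -0.53 and -0.38, and in tolerized cells in 6 of 26 alternatives. Under that scaling the all-gene median shifted too, by -0.265, -0.298 and -0.317, and with upper-quartile factors by -0.196, -0.217 and -0.2, so these values are to be read against those shifts.

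Nedd4 stood at 6.84, 11.7 and 20.6 CPM in activated replicates 1, 2 and 3, at 8.43, 14.1 and 18.0 CPM in tolerized replicates, at 10.9, 18.5 and 15.8 CPM in inflamed replicates and at 29.7, 31.0 and 37.8 CPM in naive replicates. No antigen-exposed library reached the naive range. It fell by 1.38 ± 0.36 on the log2 scale in activated cells (limma adjusted p = 0.00544), by 1.27 ± 0.36 in tolerized cells (adjusted p = 0.00807) and by 1.09 ± 0.36 in inflamed cells (adjusted p = 0.0175). The call in inflamed cells was lost without inflamed replicate 1 (adjusted p = 0.0738) and without naive replicate 3 (adjusted p = 0.0576).

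Nedd4l stood at 4.75, 9.62 and 15.2 CPM in activated replicates 1, 2 and 3, at 5.32, 6.47 and 7.98 CPM in tolerized replicates, at 4.74, 8.18 and 5.04 CPM in inflamed replicates and at 36.2, 31.5 and 32.1 CPM in naive replicates. Even the highest antigen-exposed library, activated replicate 3, lay below the lowest naive one. The gene fell by 1.78 ± 0.33 in activated, 2.19 ± 0.33 in tolerized and 2.33 ± 0.33 in inflamed cells on the log2 scale (limma adjusted p = 0.000691, 0.000146 and 9.43e-05). All 3 calls were kept in all 26 alternative fits.

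Rnf128, the gene of GRAIL, a membrane ligase described in anergic mouse CD4 T cells, was close to undetected. It had 6, 4 and 5 reads in activated replicates 1, 2 and 3, 3, 0 and 2 reads in tolerized replicates, 7, 7 and 2 reads in inflamed replicates and 6, 12 and 4 reads in naive replicates. With 12 reads at most in a library, the 4 groups could not be told apart at this depth, and 0 reads in tolerized replicate 2 allow up to 0.067 CPM (3 reads, counting error only).

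The 2 diacylglycerol kinases parted from each other. Dgka, which encodes the alpha isoform, a calcium-regulated enzyme abundant in resting T cells, fell 6.26-fold to 8.31-fold in the 3 antigen-exposed groups. Dgkz, which encodes the zeta isoform, the form reported to dominate the control of Ras in activated T cells, was called higher in tolerized cells and in neither other group.

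Dgka stood at 92.8, 333 and 580.0 CPM in activated replicates 1, 2 and 3, at 122, 199 and 463 CPM in tolerized replicates, at 149, 337 and 153 CPM in inflamed replicates and at 1709, 1636 and 1596 CPM in naive replicates. All 9 antigen-exposed libraries were far below the naive ones, but they spread widely among themselves, and the standard error of Dgka was the largest of the 8 tested genes. The log2 change against naive cells was -2.65 ± 0.64 in activated cells (limma adjusted p = 0.00352), -2.87 ± 0.64 in tolerized cells (adjusted p = 0.00198) and -3.06 ± 0.64 in inflamed cells (adjusted p = 0.00132), and each was called in all 26 alternative fits. Without activated replicate 1 the change in activated cells was -1.87, and without activated replicate 3 it was -3.22. Between antigen-exposed groups no difference was detectable: the log2 difference of tolerized from activated cells was -0.22 with an interval of -1.62 to 1.18, that of inflamed from tolerized cells -0.19 with an interval of -1.59 to 1.22.

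The spread of Dgka went with that of the naive T cell transcripts. In activated and in tolerized cells the 3 libraries stood in the same order by Dgka as by the mean of those 12 transcripts, and in inflamed cells replicate 2 was the highest in both, with replicates 1 and 3 close together in both. Nedd4 and Nedd4l had the same library at the top of each antigen-exposed group. Cblb ran the other way: within each of these groups its level was lower in libraries with a higher mean of those transcripts. An alternative chosen after the data were seen left out the library highest in naive transcripts from each of these groups. It ended none of the calls of Dgka, Nedd4 or Nedd4l against naive cells. The libraries left out were also the highest of their groups in these genes, so leaving them out lowers the group means. The kept calls therefore cannot show whether residual naive cells matter. Residual naive cells in a library and incomplete change of all these transcripts, Cblb included, in every cell cannot be told apart.

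**Figure D3:**
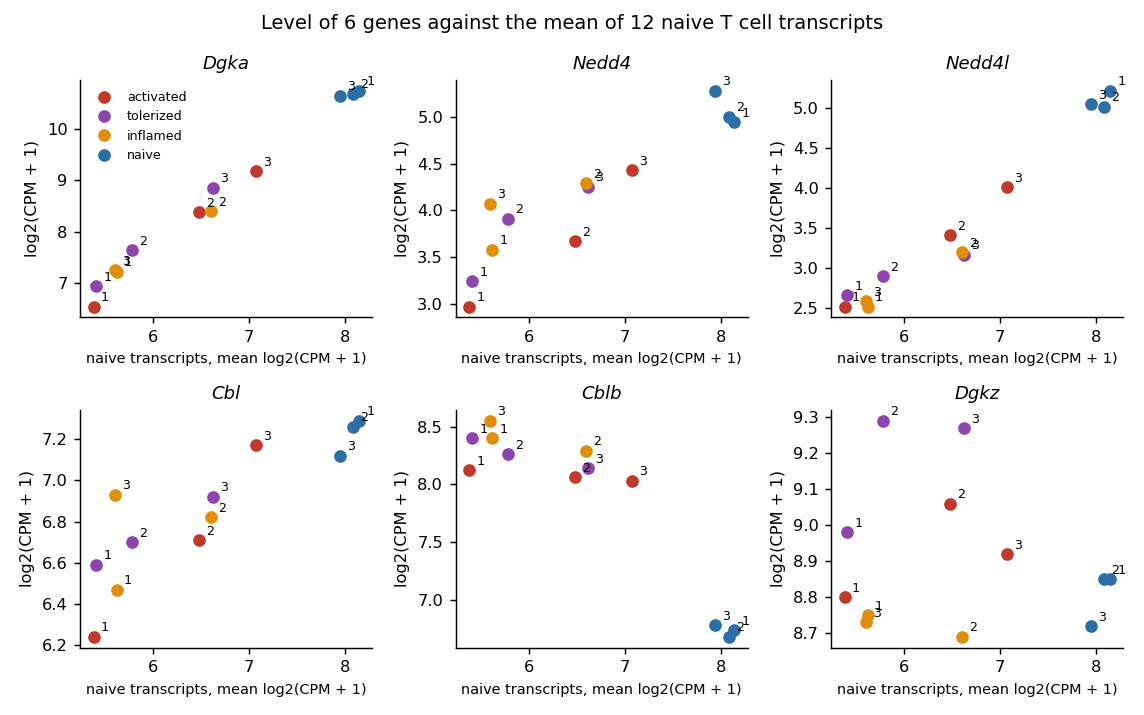
Level of 6 genes, as log2(CPM + 1), against the mean log2(CPM + 1) of 12 naive T cell transcripts in the same library. Each dot is 1 library, with its replicate number. Dgka, Nedd4 and Nedd4l stand higher in libraries that are higher on the horizontal axis. Cblb stands apart in the naive libraries and runs the other way within each antigen-exposed group. Dgkz shows the tolerized libraries above the inflamed ones.

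Dgkz stood at 444, 533 and 484 CPM in activated replicates 1, 2 and 3, at 506, 627 and 616 CPM in tolerized replicates, at 430, 413 and 424 CPM in inflamed replicates and at 460, 460.5 and 420.1 CPM in naive replicates. Tolerized libraries lay above every inflamed and every naive library, and activated libraries overlapped both the tolerized and the naive ones. The gene rose in tolerized against naive cells by 0.38 ± 0.10 on the log2 scale (limma adjusted p = 0.00542). This call was lost with library size alone (0.07, adjusted p = 0.623) and with the upper-quartile factor (0.15, adjusted p = 0.154), in which the median of all genes shifted. Activated cells differed from naive cells by 0.12 ± 0.10 (limma adjusted p = 0.285), a difference of -0.15 and -0.08 under these 2 scalings. Inflamed cells differed from naive cells by -0.08 ± 0.10 (limma adjusted p = 0.487), and the same scalings called Dgkz lower there, at -0.41 (adjusted p = 0.00895) and -0.29 (adjusted p = 0.0144).

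Dgkz was also the 1 gene of the 9 that was called between antigen-exposed groups. Inflamed cells were lower than tolerized cells by 0.46 ± 0.10 on the log2 scale (limma adjusted p = 0.0351, interval -0.68 to -0.24), a fold of 1.37. The size held at -0.57 to -0.40 over 27 alternatives, but the call was made in 14 of them, and in 5 of 12 leave-one-out fits. It was lost without any 1 of the 3 inflamed libraries, tolerized replicate 2 or 3 or naive replicate 1 or 2 (limma adjusted p = 0.0597 to 0.161), and with library size alone (adjusted p = 0.065). Neutrophil markers moved with this contrast, at 224, 104 and 12.7 CPM in inflamed and 2.96 to 11.3 CPM in tolerized libraries, and without inflamed replicate 1, the highest of them, the difference was -0.47 (limma adjusted p = 0.114). Their part in the other genes called between inflamed and tolerized or activated cells was not tested. Tolerized cells differed from activated cells by 0.25 ± 0.10 (unadjusted p = 0.0264, limma adjusted p = 1), and inflamed from activated cells by -0.20 ± 0.10 (adjusted p = 0.547).

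The promoter windows of both kinases are shown for comparison with that of Cblb and with each other, since the genes moved apart. The Dgka window is chr10:128744077-128744326 on the minus strand, 1 of 4 that RefSeq gives for this gene, chosen because its start site lay 1 base from that of the counted transcript. For Dgkz it is chr2:91950349-91950598 on the minus strand, 1 of 2, with its start site 79 bases from that of the counted transcript. On that strand the genes begin at 128745084 (Dgka) and 91976443 (Dgkz), so these windows, like that of Cblb, lie within the span of their genes. Capitals again mark matches to the 6 motifs on either strand.
Dgka: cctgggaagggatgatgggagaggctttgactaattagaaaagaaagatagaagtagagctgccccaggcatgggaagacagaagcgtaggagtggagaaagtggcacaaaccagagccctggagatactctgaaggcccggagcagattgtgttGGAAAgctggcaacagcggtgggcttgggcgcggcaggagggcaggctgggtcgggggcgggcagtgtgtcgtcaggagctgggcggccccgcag
Dgkz: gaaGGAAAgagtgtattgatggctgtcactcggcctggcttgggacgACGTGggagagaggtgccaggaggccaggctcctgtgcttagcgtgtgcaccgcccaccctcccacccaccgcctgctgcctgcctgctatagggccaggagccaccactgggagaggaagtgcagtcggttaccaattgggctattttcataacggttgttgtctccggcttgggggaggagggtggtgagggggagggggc
The Dgka window held 1 match, to GGAAA. The Dgkz window held 1 match to GGAAA and 1 to ACGTG. Neither held the AP-1, EGR, FOXO or E-box letters. Another Dgka window, with its start site 6463 bases from that of the counted transcript, held 1 E-box match and 2 to ACGTG. The remaining Dgka windows held neither motif, so these differences depend on the window shown.

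Per exon length, Dgka over Dgkz was 0.304, 0.907 and 1.74 in activated replicates 1, 2 and 3, 0.352, 0.462 and 1.09 in tolerized replicates and 0.503, 1.19 and 0.523 in inflamed replicates and 5.41, 5.17 and 5.52 in naive replicates. Dgkz was the more abundant of the pair in 6 of the 9 antigen-exposed libraries and in no naive one. As a share of the summed level per length of the 9 diacylglycerol kinases in the table, Dgka made up 37.1% ± 18.6 in activated, 30.4% ± 13.0 in tolerized, 31.5% ± 10.6 in inflamed and 76.8% ± 0.53 in naive cells. The share of Dgkz was 44.1% ± 13.2, 51.6% ± 9.02 and 45.3% ± 7.41 in those 3 groups and 14.3% ± 0.39 in naive cells (SD, n = 3).

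Ndrg1, whose product is a cytoplasmic protein induced by stress and low oxygen and described in mice as a factor of T cell anergy, was higher in activated and tolerized cells. It stood at 24.5, 19.0 and 15.6 CPM in activated replicates 1, 2 and 3, at 19.1, 23.9 and 16.4 CPM in tolerized replicates, at 8.07, 8.51 and 18.4 CPM in inflamed replicates and at 8.13, 6.74 and 6.19 CPM in naive replicates. Activated and tolerized libraries lay above all naive ones. Inflamed replicates 1 and 2 stood near the naive level, and inflamed replicate 3 among the activated and tolerized libraries. By limma Ndrg1 rose by 1.35 ± 0.28 in activated cells (adjusted p = 0.00164) and by 1.37 ± 0.28 in tolerized cells (adjusted p = 0.00137), calls made in all 26 alternatives each. In inflamed cells the change was 0.57 ± 0.28 (limma adjusted p = 0.0904), and 0.78 without inflamed replicate 1 (adjusted p = 0.0412).

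Whether the level of Ndrg1 in inflamed cells differed from the other 2 groups rests on 1 library. With all libraries the log2 difference was -0.79 ± 0.28 from tolerized cells (limma adjusted p = 0.202) and -0.78 ± 0.28 from activated cells (adjusted p = 0.333). Without inflamed replicate 3 both passed, at -1.14 (adjusted p = 0.0177) and -1.15 (adjusted p = 0.0218). That replicate had the lowest sum of macrophage markers of all 12 libraries, 13.4 CPM, and its neutrophil markers summed to 12.7 CPM, against 224 and 104 CPM in inflamed replicates 1 and 2. Their part in the split was not tested.

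**Figure D4:**
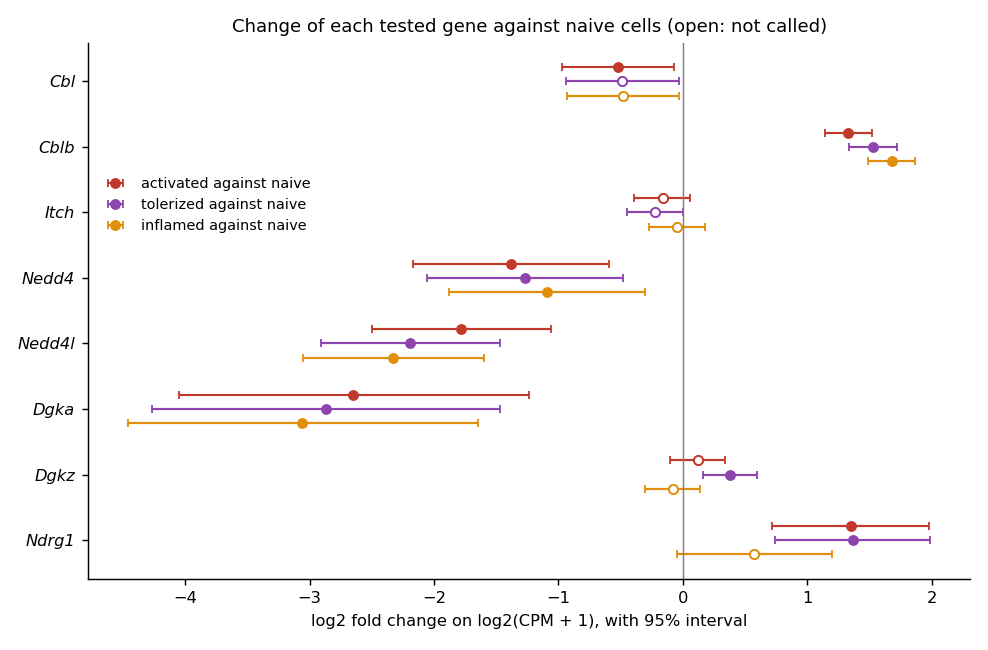
Log2 fold change of the 8 tested genes in activated, tolerized and inflamed cells against naive cells, with 95% intervals. Filled dots were called at a limma adjusted p under 0.05 and open dots were not. Cblb lies to the right of 0 and Dgka, Nedd4 and Nedd4l to the left in all 3 comparisons, while Itch is called in none.

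By length, the order of the levels in naive cells was Dgka (586 ± 20.5 CPM per kilobase), Dgkz (109 ± 5.66), Cbl (29.2 ± 1.82), Itch (22.8 ± 2.22), Cblb (16.7 ± 0.57), Nedd4 (5.97 ± 0.79), Nedd4l (4.05 ± 0.31), Ndrg1 (2.43 ± 0.35) and Rnf128 (0.0437 ± 0.00489, SD, n = 3), with no overlap between neighbours. In tolerized cells it began with Dgkz (142 ± 16.4), Dgka (93.0 ± 63.5) and Cblb (48.8 ± 4.39), where the libraries of Dgka overlapped those of both others.

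The list of the Cbl family and its partners, Cbl and Cblb included, held genes that rose and genes that fell. Of 14 tested, 6 rose and 3 fell in activated, 9 rose and 1 fell in tolerized and 7 rose and 1 fell in inflamed cells against naive cells, with medians of 0.22, 0.26 and 0.25 beside the -0.04, -0.01 and -0.01 of all genes. Over all genes 35.3%, 37.4% and 36.9% were called higher and 35.3%, 35.9% and 35.5% lower in these comparisons. Ubash3b, which encodes Sts-1, a phosphatase that binds Cbl and restrains Zap70, stood at 47.1 ± 8.57 CPM in activated, 70.4 ± 3.91 CPM in tolerized, 35.6 ± 3.69 CPM in inflamed and 5.07 ± 0.59 CPM in naive cells (SD, n = 3). It rose against naive cells by 2.98 ± 0.14, 3.56 ± 0.14 and 2.59 ± 0.14 on the log2 scale (limma adjusted p = 1.14e-07, 4.17e-08 and 1.42e-07). Inflamed cells were lower than tolerized cells by 0.97 ± 0.14 (adjusted p = 0.00405), with no overlap. Cish, which encodes a cytokine-induced adaptor that targets phospholipase C gamma 1 in CD8 T cells, was higher by 1.98 ± 0.27 in inflamed than in tolerized cells (limma adjusted p = 0.00288) and by 1.80 ± 0.27 than in activated cells (adjusted p = 0.0065). Its level was 156 ± 32.3 CPM in inflamed cells, 39.4 ± 11.8 CPM in tolerized ones and 44.9 ± 15.2 CPM in activated ones.

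Of the NEDD4-type ligases and adaptors more were called lower than higher. Among 16 tested, with Nedd4 and Nedd4l among those that fell, 1 rose and 11 fell in activated, 1 rose and 10 fell in tolerized and 2 rose and 10 fell in inflamed cells, with medians of -0.62, -0.62 and -0.60, where 35.3% to 35.9% of all genes were called lower and 35.3% to 37.4% higher. The ligase gene Smurf1 fell by 1.38 ± 0.14, 1.47 ± 0.14 and 1.30 ± 0.14 (limma adjusted p = 1.14e-05, 5.95e-06 and 1.5e-05). Against that direction Ndfip1, the adaptor that activates Itch and other NEDD4-type ligases, rose in all 3 groups. It stood at 160.4 ± 15.4 CPM in activated, 174 ± 18.0 CPM in tolerized, 167 ± 29.9 CPM in inflamed and 82.7 ± 8.45 CPM in naive cells, changes of 0.95 ± 0.14, 1.06 ± 0.14 and 1.0 ± 0.14 (limma adjusted p = 0.000124, 4.66e-05 and 7.39e-05). N4bp1, an inhibitor of Itch, was higher in inflamed cells than in tolerized cells by 0.62 ± 0.10 (adjusted p = 0.00575) and than in activated cells by 0.59 ± 0.10 (adjusted p = 0.0095).

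Other ligases and deubiquitinases linked to unresponsive T cells went both ways. Of 14 tested, 3 rose and 5 fell in activated, 3 rose and 6 fell in tolerized and 4 rose and 4 fell in inflamed cells. Of all genes 35.3% to 37.4% were called higher and 35.3% to 35.9% lower. Otub1, a deubiquitinase that in mouse T cells opposes the stability of GRAIL, rose by 0.91 ± 0.08, 1.16 ± 0.08 and 1.07 ± 0.08 (limma adjusted p = 3.36e-06, 5.6e-07 and 9.15e-07). Peli1, a ligase that limits activation of mouse T cells, fell by 0.73 ± 0.13, 0.97 ± 0.13 and 0.56 ± 0.13 (limma adjusted p = 0.000582, 6.42e-05 and 0.0027).

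Diacylglycerol kinases other than Dgka and Dgkz showed smaller or low-level changes. Dgkd, Dgke and Dgkq fell in all 3 groups, by 0.39 ± 0.07, 0.58 ± 0.18 and 0.42 ± 0.16 in activated cells, with like values in the other groups. Dgki fell to 0.787 ± 0.684 CPM in activated, 0.281 ± 0.267 CPM in tolerized and 0.198 ± 0.180 CPM in inflamed cells, against 5.66 ± 2.44 CPM in naive cells. Dgkh rose in inflamed cells by 0.79 ± 0.18 (limma adjusted p = 0.00241), to 2.98 ± 0.84 CPM against 1.28 ± 0.18 CPM in naive cells. Dgkg was not called, and Dgkk had no more than 0.0625 CPM in any library. Over all 8 tested kinases, with Dgka among those that fell and Dgkz the 1 that rose in tolerized cells, 0 rose and 5 fell in activated, 1 rose and 5 fell in tolerized and 1 rose and 5 fell in inflamed cells, where 35.3% to 37.4% of all genes rose and 35.3% to 35.9% fell.

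Of 16 tested genes that make or read diacylglycerol, 2 rose and 13 fell in activated cells, and 2 rose and 14 fell in both tolerized and inflamed cells, with medians of -1.22, -1.15 and -1.15. Of all genes 35.3% to 37.4% rose and 35.3% to 35.9% fell, with medians of -0.04, -0.01 and -0.01. Prkce, a diacylglycerol-activated kinase gene, fell by 1.35 ± 0.13, 1.42 ± 0.13 and 1.21 ± 0.13 (limma adjusted p = 7.2e-06, 4.39e-06 and 1.47e-05). The 2 genes that rose were Prkca and Prkch, of the alpha and eta isoforms of protein kinase C. Prkca stood at 84.9, 94.3 and 92.8 CPM in activated replicates 1, 2 and 3, at 116, 107 and 106 CPM in tolerized replicates, at 51.6, 62.6 and 66.0 CPM in inflamed replicates and at 47.8, 46.1 and 44.4 CPM in naive replicates. No group overlapped another. It rose by 0.96 ± 0.10, 1.23 ± 0.10 and 0.37 ± 0.10 (limma adjusted p = 8.62e-06, 1.24e-06 and 0.0053), and inflamed cells were lower than tolerized cells by 0.86 ± 0.10 (adjusted p = 0.000879) and than activated cells by 0.59 ± 0.10 (adjusted p = 0.0095).

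Rasgrp1 encodes the exchange factor that diacylglycerol recruits to activate Ras, the step Dgkz is known to limit. It stood at 110, 180 and 204 CPM in activated replicates 1, 2 and 3, at 110.5, 184 and 130.5 CPM in tolerized replicates, at 52.0, 74.0 and 68.2 CPM in inflamed replicates and at 239, 223 and 223 CPM in naive replicates. The inflamed libraries were the 3 lowest, and every antigen-exposed library was below the naive ones. It fell in tolerized and inflamed cells, by 0.72 ± 0.24 and 1.82 ± 0.24 on the log2 scale (limma adjusted p = 0.0187 and 5.66e-05), and stood at -0.52 ± 0.24 in activated cells (adjusted p = 0.072). Inflamed cells were lower than tolerized cells by 1.10 ± 0.24 (adjusted p = 0.0346) and than activated cells by 1.30 ± 0.24 (adjusted p = 0.0186). Among 13 tested genes of Ras and its regulators 6 rose and 3 fell in activated, 6 rose and 3 fell in tolerized and 7 rose and 5 fell in inflamed cells, beside 35.3% to 37.4% of all genes rising and 35.3% to 35.9% falling.

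**Figure D5:**
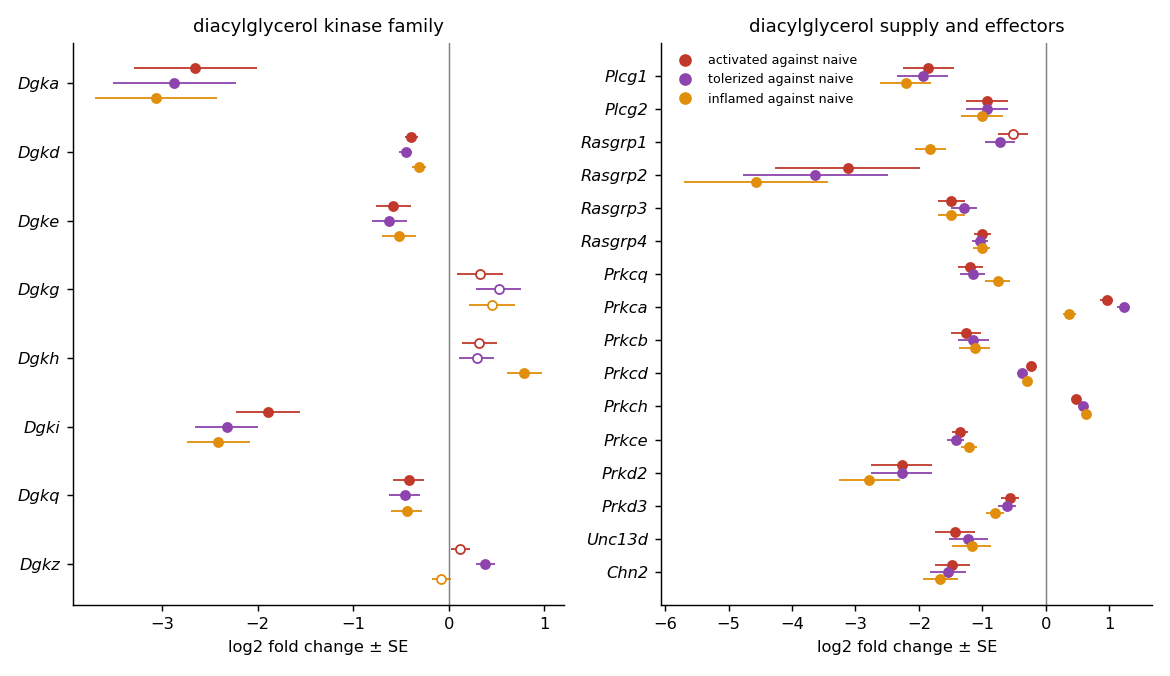
Log2 fold change ± SE against naive cells of the tested diacylglycerol kinases (left) and of genes that supply or read diacylglycerol (right), in activated, tolerized and inflamed cells. Filled dots were called at a limma adjusted p under 0.05 and open dots were not. On the right 13 or 14 of 16 genes are called lower in each group, with Prkca and Prkch higher.

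Among 23 tested substrates of the ligases in the T cell receptor pathway 3 rose and 17 fell in activated, 4 rose and 15 fell in tolerized and 3 rose and 13 fell in inflamed cells, with medians of -0.67, -0.60 and -0.61. The shares of all genes were 35.3% to 37.4% higher and 35.3% to 35.9% lower. Zap70, the kinase gene downstream of the receptor, rose by 1.39 ± 0.14, 1.48 ± 0.14 and 1.74 ± 0.14 (limma adjusted p = 7.86e-06, 4.42e-06 and 1.3e-06), and Fyn rose by 0.61 ± 0.10, 0.73 ± 0.10 and 0.66 ± 0.10. Prkcq, Pik3r2 and Cd81 were called lower in all 3 groups. The mean of Prkcq was 209, 212 and 274 CPM in activated, tolerized and inflamed cells and 464 CPM in naive cells. For Pik3r2 it was 9.5, 10.7 and 6.5 against 19.1 CPM, and for Cd81 16.2, 10.6 and 11.9 against 53.7 CPM. Notch1, a receptor gene that Itch is known to target, stood at 338 ± 16.6 CPM in inflamed, 139.7 ± 22.5 CPM in tolerized libraries and 161 ± 37.8 CPM in activated ones. It was higher in inflamed than in tolerized cells by 1.28 ± 0.15 (limma adjusted p = 0.0014) and than in activated cells by 1.09 ± 0.15 (adjusted p = 0.00429). The guanine exchange factor gene Vav1 was likewise higher, by 0.51 ± 0.08 and 0.45 ± 0.08 (adjusted p = 0.00646 and 0.0149).

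Of 14 tested transcription factors reported to act on these genes, 8 rose and 5 fell in activated, 8 rose and 5 fell in tolerized and 8 rose and 4 fell in inflamed cells. The share that fell was near the 35.3% to 35.9% of all genes called lower, and 35.3% to 37.4% of all genes were called higher. Egr2, reported upstream of Cblb and Itch in mouse T cells, rose by 2.86 ± 0.23, 2.88 ± 0.23 and 3.21 ± 0.23 (limma adjusted p = 1.9e-06, 1.52e-06 and 6.95e-07), with no call between antigen-exposed groups. Nfatc1 rose by 1.49 ± 0.14, 1.66 ± 0.14 and 1.73 ± 0.14. Hif1a, of the oxygen-sensing factor, rose by 1.19 ± 0.09, 1.33 ± 0.09 and 1.60 ± 0.09 and was higher in inflamed than in activated cells by 0.41 ± 0.09 (limma adjusted p = 0.0475). Nfatc2 fell in activated and tolerized cells, by 0.66 ± 0.12 and 0.48 ± 0.12, and stood at 0.00 ± 0.12 in inflamed cells, with inflamed above activated cells by 0.66 ± 0.12 (adjusted p = 0.0203).

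Of its family Ndrg1 alone rose, in activated and tolerized cells. Ndrg2 fell by 1.69 ± 0.41, 1.37 ± 0.41 and 2.06 ± 0.41 in activated, tolerized and inflamed cells (limma adjusted p = 0.00383, 0.0111 and 0.00101), and Ndrg3 fell by 0.71 ± 0.13, 0.79 ± 0.13 and 0.70 ± 0.13 (adjusted p = 0.000813, 0.000347 and 0.000818). Ndrg4 had at most 0.304 CPM and was not tested.

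The genes with the most similar pattern over the 12 libraries were found by Pearson's r of log2(CPM + 1), as a description, since all 12 share the contrast of naive and antigen-exposed cells. For Cblb they were Cdk6 (0.994) and Ide (0.994), for Cbl Zfp369 (0.979) and Lnpep (0.972), and for Itch Marchf6 (0.883) and Pard6g (0.883). For Nedd4 they were Arid5b (0.979) and Stk17b (0.978), and for Nedd4l 2810021J22Rik (0.997) and Axin2 (0.996). For Dgka they were Abca7 (0.999) and Cep97 (0.998), for Dgkz Zan (0.96) and Ptpn7 (0.92), and for Ndrg1 Ptges2 (0.981) and Bag5 (0.975). Itch and Dgkz, which differed least between naive and antigen-exposed cells, had the lowest of these values.

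In GENCODE the exons of the counted transcripts of Dgka, Dgkz and Ndrg1 overlap those of genes on the other strand. Dgka shares 105 of 2813 bases with Pmel, Dgkz shares 222 of 4090 bases with Gm9821, and Ndrg1 shares 419 and 137 of 2890 bases with the noncoding genes Gm17035 and Gm2895. Whether the counting used strand is not given in the sources used here, so reads from these stretches cannot be told apart.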

How the data were processed

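Per the submitters' processing notes, the tools were TopHat2, bedtools and DESeq and the build GRCm38 (mm10), with no versions given. The deposited table holds whole-number read counts per gene for 12 libraries, with its own exon lengths, and is the only kind of value used. The extraction text of the labels also speaks of mouse embryonic fibroblasts. Low counts were even more often than odd, the cause of which was not tested.

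Genes with at least 0.258 CPM (10 reads at the median library size) in 3 libraries and 15 reads in all were tested, 12499 of 16353. CPM were scaled by TMM factors (0.897 to 1.216, trimming 30% of log ratios and 5% of levels) and log2(CPM + 1) was fitted with limma 3.58.1 in R 4.3.3 (trend), with 4 group means over 12 libraries and Benjamini-Hochberg adjustment over all tested genes. Because the table writes commas inside its numbers, its unit was recorded as other, and no count model was run. The code was tested on simulated data. Fold changes on this scale understate those of low genes, and intervals are 95%. Levels of different genes were compared per exon length.

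The members, gene lists and naive transcripts were chosen with earlier results of these data known. All 9 members are described. Other genes named are those of the diacylglycerol kinase and NDRG families, among the 4 with the smallest adjusted p of a list in a comparison, or among the 2 most correlated with a member. Older and date-form symbols were replaced through gene IDs. Promoter sequences and start sites are those of RefSeq on GRCm38.p6, which held windows for 6 of the 9 members, and Itch, Nedd4l and Ndrg1 are named only. Same-numbered activated libraries deviated together with tolerized ones (r of 0.602, 0.19 and 0.576) and with inflamed ones (0.636, 0.225 and 0.146). Between same-numbered inflamed and tolerized libraries r was 0.273, -0.069 and -0.167. Some libraries of different number deviated together too, with r of 0.562 for inflamed replicate 2 with activated replicate 3. It was 0.541 for inflamed replicate 2 with tolerized replicate 3. For tolerized replicate 3 with activated replicate 2 it was 0.214. The labels give no pairing, and these values do not fix one by number.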

Additional observations from a re-analysis of the deposited data

How the results depend on the processing

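Of the changes of single members recomputed under the alternatives, 1160 kept their direction and call, 40 gained a call, 30 lost it and 42 changed sign. The 42 were of differences called in neither fit: 11 of Ndrg1 in tolerized against activated cells, 5 of Cbl in each comparison between antigen-exposed groups, and the others of Dgka, Nedd4, Itch and Dgkz. Their directions are therefore not fixed by these data. A called change reversed in 0 cases. Library size alone and the upper-quartile factor lowered the median change of all genes against naive cells. The share of called genes that were higher, 50.0%, 51.0% and 51.0% in activated, tolerized and inflamed cells, was 39.1%, 39.6% and 38.6% with library size alone and 41.0%, 41.7% and 42.4% with the upper-quartile factor, and in inflamed cells 7 members were called under either, against 4. Asking for a change of at least 2-fold left 4332 of 8831, 4714 of 9161 and 4651 of 9050 genes called against naive cells in activated, tolerized and inflamed cells, 174 of 348 in inflamed against tolerized cells and 123 of 240 in inflamed against activated cells.

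In inflamed against activated cells, 101 genes were called in a fit of the 2 groups alone, 68 in that fit with the replicate number as a block, 144 among the 9 antigen-exposed libraries, 135 without the libraries highest in macrophage markers and 147 without those highest in naive transcripts. The block over all 12 libraries called 228 genes there, against 240 in the main fit. Leaving out 1 library gave 107 to 328 genes and 0 to 1 members. In inflamed against tolerized cells 158 genes were called with the 2 groups alone and 0 in that fit with the replicate block. There were 195 among the 9 libraries, 203 without the libraries highest in naive transcripts and 157 to 540 with 1 library left out. The block over all 12 libraries called 350 genes, against 348 in the main fit, and kept the 1 member called there, Dgkz. That call was lost (0 called) with the 2 groups alone, with or without the block, and among the 9 libraries. It was also lost without the libraries highest in naive transcripts, with a 2-fold threshold, with library size alone and with no filter. With 1 library left out 0 to 1 members were called. With the block in the fit of 2 groups Dgkz stood at -0.45 (limma adjusted p = 0.293). With the block over all 12 libraries Cbl was called in tolerized and inflamed against naive cells (limma adjusted p = 0.0255 and 0.0265), while the block over 2 groups lost its call in activated cells (adjusted p = 0.13). Neither block changed a member's call in tolerized or inflamed against activated cells. In tolerized against activated cells 4 genes were called without the libraries highest in macrophage markers, and 0 to 60 with 1 library left out, 60 of them without tolerized replicate 1. The alternatives that leave out libraries by markers, use the 9 libraries or take TMM factors from tested genes only were chosen after seeing the data. The cause of these differences was not tested.

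Depth limits Rnf128, and 3 libraries a group limit differences between the antigen-exposed groups.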
